A study of Homo sapiens with 12 samples.

Results

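The genes described here are 34 genes of homologous recombination, Fanconi crosslink repair and the checkpoint kinases that signal to both, chosen by symbol for their known function out of the 55765 genes in the count table. All 34 passed the filter on low counts and stood among the 11474 genes tested. RNA was sequenced in OCI-AML2, a human cell line from acute myeloid leukaemia, in single-cell clones carrying a construct for the transcription factor MEF2C that doxycycline switches on. The construct encoded either the wild-type protein (WT) or the S222A form, in which a serine that can be phosphorylated is replaced by alanine, and the series title places the work in MEF2C phosphorylation and resistance to chemotherapy. The 4 groups of 3 libraries were WT uninduced and S222A uninduced, kept for 48 h with vehicle, and WT induced and S222A induced, kept for 48 h with 600 ng doxycycline in 3 ml of culture. How many clones stood behind each construct is not given in the sources used here, every group retained the cells' own MEF2C gene, and no doxycycline-treated cells without a construct are among the samples analysed here. The labels do not say that replicates came from separate cultures, and the p-values below therefore reflect library-to-library spread that may be technical.

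Homologous recombination repairs a broken chromosome by copying the intact sister. The MRE11A, RAD50 and NBN complex and RBBP8 begin to trim the break, EXO1 and BLM extend the single strand, and BRCA1 with BARD1, PALB2 and BRCA2 prepare it for strand exchange, helped by RAD51C, RAD51D, XRCC2, XRCC3 and RAD54L. The Fanconi pathway removes crosslinks that join the DNA strands: FANCM recognises the stalled fork, a core complex attaches ubiquitin to the FANCD2-FANCI pair, and nucleases such as FAN1 and those held by SLX4 cut the crosslink out. ATM and ATR are the kinases that sense broken and stalled DNA and act through CHEK2 and CHEK1. Many of these genes are transcribed most in dividing cells, in S phase, and many leukaemia drugs act by damaging DNA.

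Promoters are shown for 6 members on which the comparisons below turn, because E2F factors, which drive S-phase genes, and the CCAAT-binding factor NF-Y act at sites near the start of many such genes. The 300 bases are 250 before and 50 after the transcription start in RefSeq (GRCh38.p14), given 5′ to 3′ on the strand of the gene, and for genes with several starts the one listed at the top is printed. Capitals mark matches on either strand to E2F motifs (longer form TTTGGCGC, TTTCCCGC, TTTGCCGC or TTTCGCGC, shorter form GGCGGGAA or GGCGCGAA), to CCAAT, or to the cell-cycle homology region, CHR (TTTGAA). The CHEK1 promoter is chr11:125625979-125626278 on the plus strand, FANCE chr6:35452088-35452387 on the plus strand and RAD54L chr1:46247438-46247737 on the plus strand. EXO1 is chr1:241847954-241848253 on the plus strand, XRCC2 chr7:152676092-152676391 on the minus strand and ATM chr11:108222817-108223116 on the plus strand.
CHEK1: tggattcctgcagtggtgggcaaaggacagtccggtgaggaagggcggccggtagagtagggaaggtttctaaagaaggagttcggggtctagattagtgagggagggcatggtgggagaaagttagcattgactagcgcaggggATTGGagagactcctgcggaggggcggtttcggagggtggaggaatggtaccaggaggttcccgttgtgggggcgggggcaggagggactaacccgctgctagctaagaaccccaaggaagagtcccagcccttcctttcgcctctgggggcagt
FANCE: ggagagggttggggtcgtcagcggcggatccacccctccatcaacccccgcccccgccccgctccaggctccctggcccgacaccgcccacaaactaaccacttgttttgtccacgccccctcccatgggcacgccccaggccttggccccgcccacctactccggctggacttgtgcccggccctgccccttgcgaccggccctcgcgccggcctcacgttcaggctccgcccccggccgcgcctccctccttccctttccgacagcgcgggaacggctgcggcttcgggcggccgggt
RAD54L: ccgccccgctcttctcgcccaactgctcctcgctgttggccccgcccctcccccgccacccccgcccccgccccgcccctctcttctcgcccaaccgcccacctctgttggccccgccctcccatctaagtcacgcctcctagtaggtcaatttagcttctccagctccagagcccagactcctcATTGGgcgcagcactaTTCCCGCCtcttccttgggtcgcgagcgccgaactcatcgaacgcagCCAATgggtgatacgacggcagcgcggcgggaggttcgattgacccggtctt
EXO1: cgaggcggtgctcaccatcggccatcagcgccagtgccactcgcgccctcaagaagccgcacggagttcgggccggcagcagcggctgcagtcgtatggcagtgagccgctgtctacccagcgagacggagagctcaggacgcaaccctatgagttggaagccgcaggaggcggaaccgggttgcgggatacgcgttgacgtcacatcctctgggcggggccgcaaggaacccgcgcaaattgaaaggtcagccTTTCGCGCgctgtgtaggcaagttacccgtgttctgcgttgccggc
XRCC2: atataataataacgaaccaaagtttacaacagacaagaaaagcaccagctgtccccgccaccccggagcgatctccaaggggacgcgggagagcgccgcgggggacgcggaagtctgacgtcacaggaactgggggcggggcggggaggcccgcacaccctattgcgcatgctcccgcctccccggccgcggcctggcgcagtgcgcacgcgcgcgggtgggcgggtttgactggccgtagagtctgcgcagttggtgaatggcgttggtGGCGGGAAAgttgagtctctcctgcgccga
ATM: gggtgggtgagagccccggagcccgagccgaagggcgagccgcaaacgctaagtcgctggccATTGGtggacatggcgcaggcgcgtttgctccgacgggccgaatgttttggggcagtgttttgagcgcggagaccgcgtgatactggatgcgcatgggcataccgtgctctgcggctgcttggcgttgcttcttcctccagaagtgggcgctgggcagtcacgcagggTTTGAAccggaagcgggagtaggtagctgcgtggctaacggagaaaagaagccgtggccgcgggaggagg
The RAD54L window held a shorter-form E2F match 49 bases before the start between CCAAT matches 65 and 2 bases before it. EXO1 had a longer-form E2F match beginning 5 bases after the start, and in XRCC2 the longer and shorter forms overlapped at 22 and 21 bases after it. CHEK1 had a CCAAT match 105 bases before the start and no E2F match in this window. The ATM window held a CHR match 20 bases before the start and a CCAAT match 188 bases before it, and FANCE held no match to any of these motifs.

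RefSeq windows were matched for 31 of the 34 members. An E2F match of either form, including overlapping ones, was in a window of 12 members (38.7%), against 6.2% of all 35116 windows and 13% of 8610 tested genes. Among 40 genes of DNA replication it was in 26 (65.0%). CCAAT was in 13 members (41.9%), against 44.0% of the tested genes and 34.6% of all windows. CHR was in 3 members (9.7%), against 13.9% of the tested genes and 15.2% of all windows. The MEF2 consensus was found in 1 member, FANCM (3.2%), against 2.2% of the tested genes and 3.0% of all windows. Shares of members and tested genes count a gene when any of its starts has a match, and shares of all windows count each start. The 12 members with an E2F match were XRCC2, XRCC3, RAD52, RAD54L, FANCA, FANCC, FANCL, FANCD2, BRIP1, DCLRE1A, EXO1 and BLM, which spread over each role except the checkpoint kinases. A match is a stretch of letters, not a measured binding site.

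Library totals ran from 875710 to 13134791 counts, and levels are given as CPM, counts per 1e6 counts of a library. The 3 counts treated as the lowest detected level equalled 0.239 to 3.36 CPM, a floor for counting error alone. MEF2C itself lay between 645.3 and 816.7 CPM in WT uninduced, 674.4 and 844.1 in WT induced, 605.3 and 801.6 in S222A uninduced, and 786.3 and 956.1 in S222A induced, with overlap between uninduced and induced libraries of each line. Of 14 myeloid markers, 12 reached 1 CPM, among them PTPRC, CD33 and SPI1, while CD34 stayed near 0 and CSF2RA at 0. Of 6 erythroid markers 5 were at 0 throughout. Of 6 T and NK markers 1 reached 1 CPM, NKG7, at 5.53 to 41.77 CPM with counts in all 12 libraries. Of 5 B-cell markers 2 reached 1 CPM, and CD79B had counts in 11 libraries, up to 6.54 CPM. In each group the most deeply sequenced library stood apart from the others in its gene levels. Results that rest on these libraries are given with a model term for the deepest library of each group or without them. The sources used here do not say what else distinguished the deepest libraries. Replicate 3 of S222A uninduced is shallow, with 930960 counts, as is replicate 2 of WT induced, with 875710. Some results are also given without single libraries.

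On induction of the S222A form, the repair genes were mostly lower, by small amounts that did not pass the test for any single member. Of the 34 members 28 had a negative log2 fold change, and the median was -0.27, with quartiles of -0.49 and -0.18, against 0.01 over all genes tested. Without replicate 3 of S222A uninduced, 29 were negative with a median of -0.25. No member reached an adjusted p under 0.05 in edgeR's quasi-likelihood test, where 4.45% of all genes did. At an unadjusted p under 0.05, 4 members were lower and 0 higher, against 9.26% and 9.85% of all genes, so the count of 4 is close to the background. Groups that did not overlap were found for 4 lower members, CHEK1, FANCE, RAD50 and NBN, and for 1 higher member, FAN1, against 13% and 14.4% of all genes, again no more than the background. In bulk RNA, fewer cells in a phase of the cycle and less RNA per cell cannot be told apart.

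CHEK1, the kinase that ATR activates at stalled forks and that holds cells back from mitosis, came nearest to the threshold. It stood at 74.0, 85.0 and 87.6 CPM in S222A uninduced and at 53.3, 61.1 and 43.9 CPM in S222A induced (82.2 ± 7.22 against 52.8 ± 8.60, SD, n = 3). Every induced library was below every uninduced one. The difference was 1.55-fold, a log2 fold change of -0.64 ± 0.17 (SE, 95% interval -1.01 to -0.26) with an adjusted p of 0.0588 in edgeR's quasi-likelihood test. DESeq2 gave an adjusted p of 0.0303 and limma-voom 0.0463. In edgeR it was 0.0605 with RLE factors, 0.0797 with upper-quartile factors, 0.128 with a replicate block and 0.198 with no filter. Leaving out any single library of these groups moved edgeR's value to between 0.0914 and 0.201. The other kinases had point estimates smaller in size. ATR had a log2 fold change of -0.17 ± 0.30, CHEK2 of -0.43 ± 0.32 and ATM of 0.44 ± 0.40. The 95% intervals of ATR (-0.82 to 0.47) and CHEK2 (-1.12 to 0.26) include CHEK1's value, and that of ATM (-0.43 to 1.31) does not. The kinases were not tested against each other. CHEK2 also has near-identical pseudogene copies that can share its reads.

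Among the genes of end resection and dissolution, all 6 had a negative value with a median of -0.43, and none passed the test. EXO1, the exonuclease that lengthens the resected strand, was at 40.8, 60.3 and 61.3 CPM in S222A uninduced and 42.6, 41.0 and 30.6 CPM in S222A induced. The groups overlapped through the deepest uninduced library, at 40.8 CPM, and the log2 fold change was -0.49 ± 0.23 (adjusted p 0.258, edgeR). BLM, the helicase that dissolves crossed-over strands, had -0.49 ± 0.25 and RBBP8, which starts resection, -0.41 ± 0.19. MRE11A, the nuclease of the break-sensing complex, had -0.44 ± 0.24, while its partners RAD50 and NBN had -0.20 ± 0.30 and -0.21 ± 0.18 with induced libraries all below the uninduced ones. For RAD50 these were 90.0, 93.6 and 97.5 CPM against 80.4, 89.9 and 73.8 CPM, a gap smaller than the spread seen in the WT line, whose libraries ran from 86.5 to 220.8 CPM.

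Of the 11 genes of strand exchange, 10 had negative values, with a median of -0.25 and no call. RAD54L, a motor protein that helps the strands pair, was at 11.5, 9.03 and 3.29 CPM in S222A uninduced and 5.20, 3.34 and 5.74 CPM in S222A induced. The lowest uninduced value is replicate 3, where it rests on 3 counts. The log2 fold change was -0.88 ± 0.40 (adjusted p 0.252, edgeR), and it ran from -1.11 to -0.50 when single libraries were left out. LRRC41 on the opposite strand shares 25.1% of its exon bases. XRCC2, which acts with RAD51C and RAD51D in strand exchange, was at 18.0, 25.4 and 38.3 CPM before and 21.5, 16.9 and 9.57 CPM after induction, and its log2 fold change of -0.73 ± 0.51 is small beside that spread. BRCA1 had -0.52 ± 0.34, BRCA2 -0.58 ± 0.60 and PALB2, which joins the pair, -0.29 ± 0.19. BARD1, the partner that BRCA1 needs as a ubiquitin ligase, had -0.02 ± 0.16, with 79.5, 94.0 and 112.8 CPM before and 90.4, 96.1 and 93.2 CPM after induction. RAD52, an alternative annealing factor, was the member of this role with a positive value, 0.30 ± 0.44. For RAD51C, RAD51D, XRCC3 and RAD54B the values ran from -0.25 to -0.11, and XRCC3 shares 76.7% of its exon bases with KLC1 on the other strand.

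The 13 Fanconi genes divided into 9 negative and 4 positive values with a median of -0.24 and no call. FANCE, which bridges the core complex to FANCD2, was at 23.9, 20.9 and 25.2 CPM in S222A uninduced and 19.1, 17.8 and 13.9 CPM in S222A induced, so the groups did not overlap. Its log2 fold change was -0.47 ± 0.19 with an adjusted p of 0.199 (edgeR). In the ubiquitinated pair FANCD2 had -0.29 ± 0.17 and FANCI -0.30 ± 0.20, and FANCL, the ubiquitin ligase of the core complex, had 0.02 ± 0.28. FANCD2 also has pseudogene copies that can share its reads. FANCM and SLX4 had wide intervals, with -0.75 ± 0.49 and -0.86 ± 0.62. FAN1, the nuclease that cuts crosslinked DNA, was the only Fanconi gene whose induced libraries all lay above the uninduced ones, with 4.32, 5.34 and 2.19 CPM before and 7.62, 7.36 and 6.62 CPM after induction. Its log2 fold change was 0.74 ± 0.37 (adjusted p 0.299, edgeR), the lowest library was under the 3-count floor, and 24.3% of its exon bases lie opposite MTMR10.

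**Figure D1:**
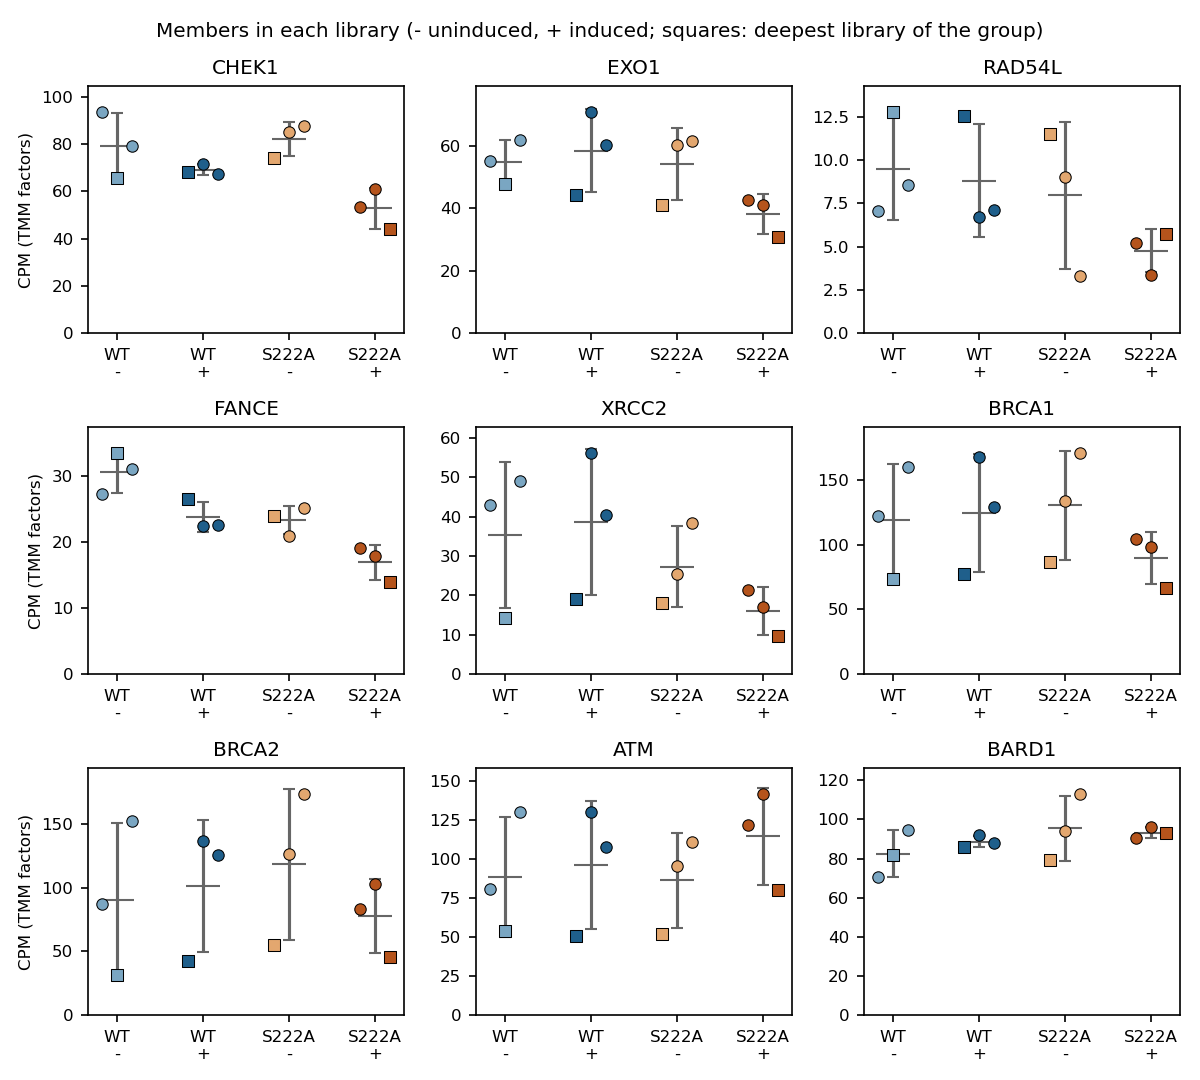
Level in CPM of 9 members in each of the 12 libraries, with a bar at the group mean and whiskers of 1 SD (n = 3), circles for libraries and squares for the deepest library of a group. CHEK1 in S222A induced lies at 43.9 to 61.1 CPM, below all 9 other libraries, whereas XRCC2, BRCA1, BRCA2 and ATM are lowest in the square of every group.

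Much of the spread within groups lay between the deepest library and the others. The depth term marks the deepest library of each group and does not grade depth. Across all 12 libraries, the deepest library of each group differed from the others, at an adjusted p under 0.05 in edgeR with a term for depth, by lower values in 14 members and higher values in 4, against 19.2% and 19.3% of all genes. The 14 lower members of 34 stand above that background share, and the 4 higher ones below it. BRCA2, a mediator of strand exchange, had a depth difference of -1.48 on the log2 scale: it was at 86.8, 31.1 and 152.4 CPM in WT uninduced, where the library at 31.1 is the deepest. XRCC2 had -1.16, SLX4 -1.23, FANCC and ATM -0.95 each, BRCA1 -0.81 and FANCM -0.80. In the other direction stood RAD54L with 0.67, FANCG, a core-complex scaffold, with 0.56, FANCI with 0.33 and RAD51C with 0.31, and in all of these the deepest library was the highest in 4 of 4 groups.

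The longest annotated mRNA in GENCODE release 29 ran from 3067 to 13147 bases among the 14 members lower in the deepest libraries, with a median of 7004, and from 2591 to 4743 among the 4 higher ones. Across the 34 members, the depth difference and log2 mRNA length had a Spearman rho of -0.62 and a Pearson r of -0.59. Over the 10144 tested genes with a length the Spearman rho was -0.27. These are correlations across genes, which share the same 12 libraries and are not independent replicates. XRCC2, with 3067 bases, and RAD51D, with 9988 bases and a depth difference of -0.07, were the plainest departures from the trend. The fold change on S222A induction had a Spearman rho with length of -0.05, and 0.02 when the depth term was in the model. What makes long members lower in these libraries was not tested.

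**Figure D2:**
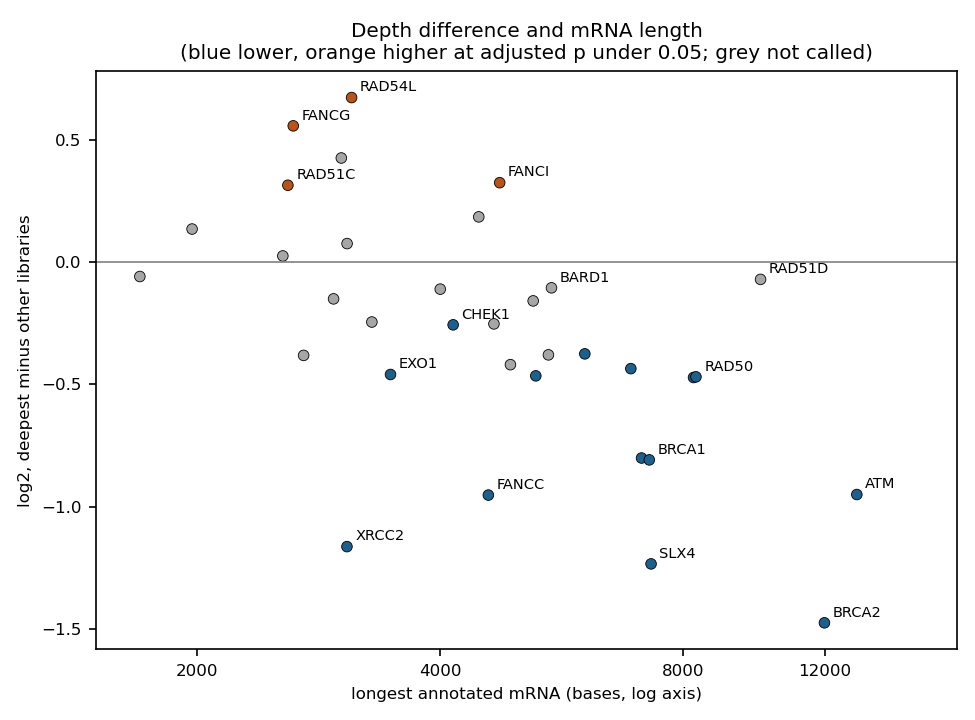
Log2 difference between the deepest and the other libraries (y axis) against the longest annotated mRNA in bases (x axis, log scale), a point for each of the 34 members. Members such as BRCA2 (-1.48) and ATM (-0.95) with long mRNAs lie low, and RAD54L (0.67) and FANCG (0.56) with short ones lie high.

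**Figure D3:**
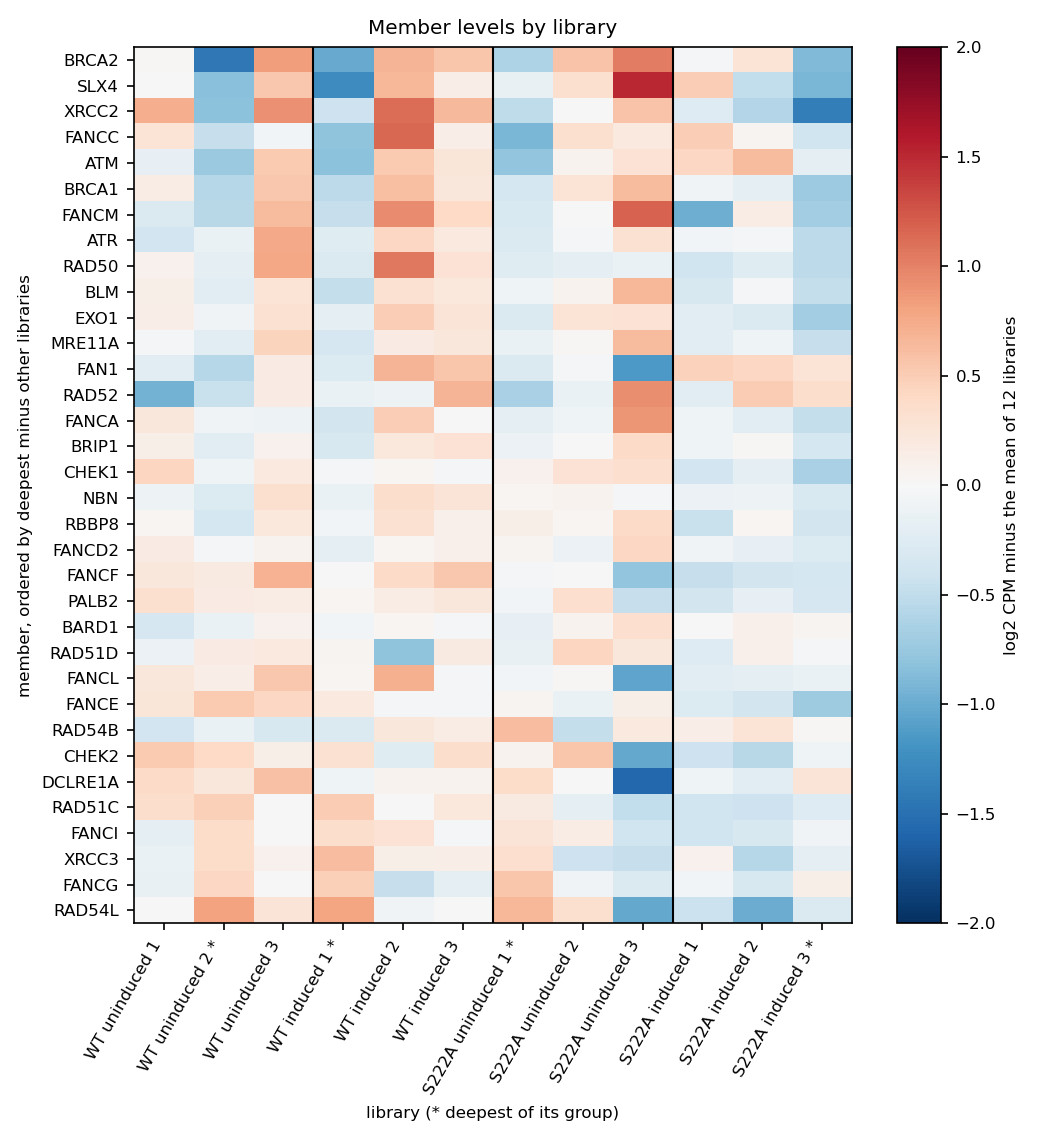
Log2 CPM of each member minus its mean over the 12 libraries (colour, clipped at 2 either way), with libraries as columns, an asterisk for the deepest of each group, and members ordered by depth difference. In the top rows, from BRCA2 to BRCA1, the column with an asterisk is the lowest of its group in all 4 groups.

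With the depth term in the model, 6 members were lower on S222A induction and 1 was higher. Over all genes this model called 9.12% lower and 8.77% higher, so the 6 of 34 lie above the lower share and the 1 of 34 below the higher one. The 6 were CHEK1 (log2 fold change -0.65 ± 0.13, adjusted p 0.00176, edgeR), XRCC2 (-0.79 ± 0.22), EXO1 (-0.49 ± 0.14), BRCA1 (-0.50 ± 0.14), RAD54L (-0.91 ± 0.29) and BLM (-0.47 ± 0.15). These act at the fork checkpoint, in resection, in strand exchange and in dissolution. The same model called 21 of 44 DNA replication genes and 12 of 30 mitosis genes lower, and 0 higher in either list. Those lower shares are larger than 6 of 34. No Fanconi core-complex gene was called, but FANCE had a value of similar size, -0.49 ± 0.19 (adjusted p 0.0765, edgeR). Between the induced lines the same model called FANCE and FANCF lower, at -0.56 and -0.68, where 10% of all genes were called lower. Between the uninduced lines it gave -0.42 and -0.48, neither called. On S222A induction the member that rose was ATM, at 0.46 ± 0.16 with an adjusted p of 0.0441. It stood at 52.1, 95.6 and 110.6 CPM before and 121.6, 141.1 and 80.1 CPM after induction, and within the deepest libraries alone, 52.1 against 80.1, the log2 ratio was 0.62. Of the 6 lower members 4, XRCC2, EXO1, RAD54L and BLM, have an E2F match in a promoter window, and CHEK1 and BRCA1 have none. The share is 38.7% of the 31 members with a window and 13% of the tested genes. These 6 were picked by their p-values, and a link between E2F and their values was not tested.

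Within each depth class the lower members kept the same direction, but these libraries had also selected them, so this is not a separate check. Between the deepest libraries the log2 ratio was -0.75 for CHEK1, -0.91 for XRCC2, -0.42 for EXO1, -0.38 for BRCA1, -1.01 for RAD54L and -0.40 for BLM, with 1 library on each side. Without the deepest libraries, edgeR gave CHEK1 -0.58 with an adjusted p of 0.0858, EXO1 -0.54 with 0.137 and RAD54L -0.75 with 0.439, and none of the 7 members called with the depth term was called there. FANCE weakened to -0.29 without them (adjusted p 0.609). Myeloid markers also differed between these groups, with a summed level of 1762.6 to 1883.6 CPM over the 14 markers in S222A uninduced and 1215.2 to 1312.9 in S222A induced, and 4 of the 11 tested were called lower. The lower sum came mainly from the granule genes CTSG, with group means of 617.9 and 195.1 CPM, and AZU1, with 425.8 and 153.3 CPM. Other myeloid markers had higher means after induction, PTPRC with 583.9 and 706.4 CPM and FLT3 with 76.3 and 107.1 CPM. Their part in the repair genes' values was not tested.

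On induction of WT MEF2C, 17 members had negative and 17 positive values, with a median of 0.02 against 0.01 over all genes. That split rested on single libraries: 10 were negative without replicate 1 of WT induced, 11 without replicate 3 of WT uninduced and 22 without replicate 2 of WT uninduced. No member was called, and 0.00872% of all genes were, a single gene. The groups were apart for 2 members, FANCE and DCLRE1A, both lower, and for 0 higher, against 2.98% and 2.81% of all genes. FANCE was at 27.2, 33.4 and 31.1 CPM in WT uninduced and 26.4, 22.4 and 22.6 CPM in WT induced, a log2 fold change of -0.35 ± 0.19. DCLRE1A, a nuclease of crosslink repair, went from 14.1, 12.6 and 16.3 CPM to 10.1, 11.2 and 11.3 CPM, or -0.40 ± 0.33, resting on 10 counts in the shallowest WT library. FAN1 had 0.54 ± 0.38 and RAD52 0.60 ± 0.45, with overlapping groups and, for RAD52, 6 counts in that library. CHEK1 had -0.20 ± 0.18, with 93.4, 65.5 and 79.2 CPM before and 68.1, 71.7 and 67.4 CPM after induction, so the induced libraries lay within the range of the uninduced ones. Adjusted p-values of these members were all close to 1 in edgeR.

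**Figure D4:**
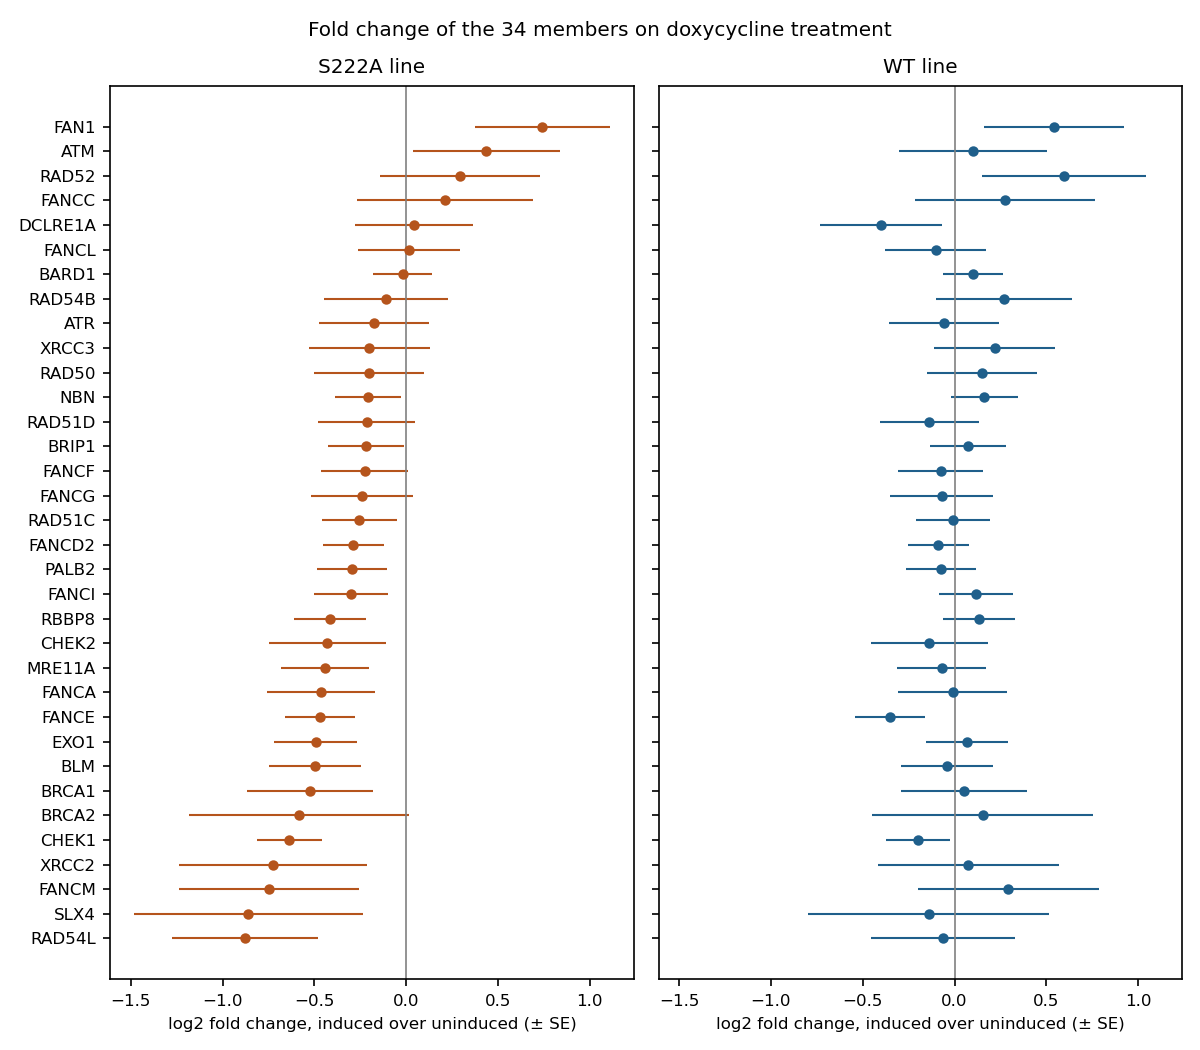
Log2 fold change of each of the 34 members, induced over uninduced, with its SE, in the S222A line (left) and the WT line (right), ordered by the S222A value. In the S222A line 28 of 34 points lie left of 0, from -0.88 for RAD54L, and in the WT line 17 do.

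Whether induction acted differently in the S222A line was tested by the difference between the fold changes, S222A minus WT. For 30 of 34 members it was negative, with a median of -0.32 against -0.01 over all genes, and no member was called, as for all but 0.0784% of genes. The smallest unadjusted p-values belonged to RBBP8, with a difference of -0.55 ± 0.28 (adjusted p 0.787), CHEK1 with -0.44 ± 0.25 (0.83), EXO1 with -0.56 ± 0.32 (0.836) and FANCM with -1.04 ± 0.69 (0.889), all from edgeR. For CHEK1 the 95% interval ran from -0.97 to 0.10, which includes both no difference and one larger than the S222A fold change itself. All 11 strand-exchange genes and all 6 resection genes had negative differences, and 10 of the 13 Fanconi genes. A difference between the lines in the response of any single repair gene was not detectable at this depth and replication.

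Comparing the lines after induction, S222A induced against WT induced, again placed 28 of 34 members lower, with a median of -0.35 against 0.00 over all genes. This comparison shares the S222A induced libraries with the induction of S222A, so the figures are not independent of those above. No member was called, against 6.34% of all genes. At an unadjusted p under 0.05, 10 were lower and 0 higher, against 9.96% and 11.2% of all genes, so the lower count is 10 of 34 where 9.96% of genes qualified. Likewise 10 members had non-overlapping groups on the lower side and 0 on the higher side, against 12.9% and 15.2%. These were PALB2, RAD51C, XRCC3, RAD54L, FANCE, FANCF, FANCL, FANCI, EXO1 and CHEK1, named here after their values were seen.

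RAD51C, which acts in complexes with XRCC2 and with XRCC3, stood at 64.2, 44.8 and 52.1 CPM in WT induced and 33.9, 33.7 and 37.3 CPM in S222A induced. The difference was -0.64 ± 0.20 on the log2 scale, with an adjusted p of 0.0814 (edgeR). FANCF, an adaptor of the core complex, was at 24.7, 32.5 and 36.3 CPM against 18.0, 19.2 and 19.4 CPM, a difference of -0.71 ± 0.23 with an adjusted p of 0.0925. Before induction the corresponding differences were -0.39 for RAD51C and -0.56 for FANCF, neither called. RAD50 was at 86.5, 220.8 and 130.5 against 80.4, 89.9 and 73.8 CPM, and XRCC2 at 19.2, 56.0 and 40.5 against 21.5, 16.9 and 9.57 CPM. Both overlapped between groups, and their differences were -0.81 ± 0.30 and -1.23 ± 0.50. Before induction their differences were -0.46 ± 0.30 and -0.43 ± 0.51, neither called. Between the induced lines, RAD50 was called without the first WT induced library, and RAD50 and XRCC2 with no filter on low counts. Without the deepest libraries, RAD50, XRCC2 and FANCF were called. DESeq2 and limma-voom called no member in this comparison. With single libraries left out, RAD50's difference ran from -1.10 to -0.44 and its adjusted p from 0.0316 to 0.387 (edgeR). With the depth term 10 members were lower and 0 higher, against 10% and 11.6% of all genes: BRCA1, CHEK1, EXO1, FANCE, FANCF, FANCI, RAD50, RAD51C, RAD54L and XRCC2. The same model called 14 of 44 DNA replication genes and 14 of 30 mitosis genes lower, and 0 higher in either list.

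Before induction the lines were compared as a baseline, with 17 members lower and 17 higher in S222A than in WT, a median of -0.00 and no call, against 0.392% of all genes. The smallest p-values went to FANCF, with a log2 difference of -0.56 ± 0.24 (adjusted p 0.629), FANCE with -0.40 ± 0.19 (0.682), RAD51C with -0.39 ± 0.20 (0.746) and FANCL with -0.51 ± 0.28 (0.754). FANCF was at 29.3, 28.2 and 40.4 CPM in WT uninduced and 24.3, 25.04 and 14.2 CPM in S222A uninduced. For 3 members, FANCF, FANCE and FANCL, every S222A library lay below every WT library, and for 0 every library lay above, against 6.1% and 6.24% of all genes. Other core-complex genes had overlapping groups, with 0.18 ± 0.30 for FANCA, 0.05 ± 0.28 for FANCG and -0.06 ± 0.50 for FANCC. Without replicate 2 of WT uninduced, 23 members were lower and 11 higher. CHEK1 differed by 0.05 ± 0.17, with an interval from -0.33 to 0.43.

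Over all genes, 1.66% were called lower and 2.8% higher on S222A induction, and the counts for other genes of the same pathways are read against those shares. Of 65 further recombination and crosslink repair genes 57 were tested, with a median of -0.13, and STRA13, a FANCM partner also known as CENPX, was the only call, at -0.62 ± 0.16 (adjusted p 0.042, edgeR). USP1, which removes ubiquitin from FANCD2, had -0.52 ± 0.18 (adjusted p 0.133) and SWI5, a cofactor of strand exchange, 0.62 ± 0.24 (0.168). Of 17 tested partners of ATR and ATM, with a median of -0.37, CDC25A fell by 0.76 on the log2 scale (adjusted p 0.0152). CDC25A is the phosphatase that CHEK1 marks for destruction.

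Replication and mitosis genes, measured in the same libraries, were also lower. Of 44 replication genes 42 had negative values on S222A induction, with a median of -0.41, and 6 fell: MCM3, MCM4, MCM7 and MCM10 of the helicase and its loading, RFC3 of the clamp loader, and POLA2 of the primase complex. RFC3 changed most, from 174.1 ± 34.9 CPM to 92.7 ± 9.52 (SD, n = 3), a log2 fold change of -0.90 ± 0.18 with an adjusted p of 0.0118 in edgeR. All 30 mitosis genes had negative values, with a median of -0.39, and CCNB1 and TPX2 fell. Of 19 tested regulators of the E2F, RB and MuvB families, with a median of -0.21, MYBL2 fell by 0.82 on the log2 scale (adjusted p 0.049). The repair members' median of -0.27 is thus smaller in size than those of replication and mitosis, a difference that was not tested. The part of these genes in the members' values was not tested.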

How the data were processed

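The 34 members and the further gene lists were chosen with earlier results of these data known. The authors deposited raw read counts per gene symbol for 12 libraries, without normalization. Per the submitters' processing notes, STAR 2.4, HTSeq 0.6.1 and DESeq2 were used with build hg19, and RNA was prepared with a TruSeq kit per the labels' protocols. No source used here states the strand setting or annotation, so reads of overlapping genes on opposite strands cannot be told apart: 18 of 34 members overlap such exons in GENCODE release 29.

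In R 4.3.3, genes were kept by filterByExpr at a minimum count of 10, leaving 11474 of 55765. All 12 libraries entered 1 model of the 4 group means, with 8 residual degrees of freedom, by robust quasi-likelihood F tests in edgeR 4.0.16 with TMM factors, with Benjamini-Hochberg adjustment over all tested genes, and calls required an adjusted p under 0.05. Levels are CPM with TMM factors. SE was taken from each log2 fold change and its F statistic, and intervals are 95%. The biological coefficient of variation was 24.8%. No 2 replicates of a group matched within counting noise (chi-square over degrees of freedom from 2.79 to 39.6 in 12 pairs). Totals ran from 875710 to 13134791 counts, and shallow libraries give the least precise values.

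Alternatives were RLE and upper-quartile factors, no filter, DESeq2 1.42.0, limma-voom (limma 3.58.1), a replicate block, only the groups compared, a term for the deepest library of each group, and leaving out these or each library. Promoter windows came from RefSeq (GRCh38.p14) and were searched on both strands. Named members were MEF2C, any member called, and the 4 members with the smallest unadjusted p in each comparison other than the induced lines, and further-list genes that were called or among the 3 with the smallest p; other members are given to describe their roles. A gene that this rule names in a further list is not reported here.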

Additional observations from a re-analysis of the deposited data

How the results depend on the processing

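The members' median log2 fold change stayed negative under every alternative run for S222A induction (-0.32 to -0.24), the induction difference (-0.42 to -0.27) and the induced lines (-0.49 to -0.23). For WT induction it ran from -0.08 to 0.16 and for the uninduced lines from -0.09 to 0.06, with both signs among the alternatives. Members with negative values on S222A induction numbered 27 to 30 of 34 over these alternatives, and 26 to 31 between the induced lines. Members called on S222A induction, 0 in the planned analysis, numbered 1 with DESeq2 and 1 with limma-voom (CHEK1 in both), and 7 with the term for the deepest libraries. Between the induced lines they numbered 2 with no filter, 10 with the depth term, 3 without the deepest libraries, and 0 to 1 when each replicate was left out in turn.

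Counts over all genes moved more. In WT induction, 1 gene was called as planned, 0 with upper-quartile factors, limma-voom, only the groups compared, without the deepest libraries or without any single replicate, 2 with no filter, 4 with DESeq2 and 6 with the depth term. In S222A induction there were 811 with DESeq2 and 2052 with the depth term, and 187 to 329 with a replicate left out. In the induction difference there were 22 with no filter, 36 with DESeq2, 147 with the depth term and 0 to 4 with a replicate left out. The induced lines gave 2480 with the depth term, 482 from only the groups compared and 249 to 582 with a replicate left out. The uninduced lines gave 91 with no filter, 83 with DESeq2, 218 with the depth term, 9 from only the groups compared and 17 to 30 with a replicate left out. The cause of these shifts was not tested, except that leaving out libraries leaves fewer samples.

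The replicate numbers do not pair the samples: deviations of same-numbered libraries had correlations from -0.531 to 0.323, and 2 of 12 were highest with their own number. With the replicate block, 0 members were called in every comparison, and over all genes 0, 235, 0, 350 and 22 were called for WT induction, S222A induction, their difference, the induced and the uninduced lines.

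Depth limits the lowest members: 10 members had a library with under 10 counts, namely FAN1 (lowest count 2), DCLRE1A and RAD54L (3), CHEK2 and XRCC3 (4), RAD54B (5), FANCL, RAD51D and RAD52 (6) and SLX4 (8). With no filter, the median of all genes on S222A induction moved to 0.12 on the log2 scale, since genes with few counts entered.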

Other observations

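Repair pathways outside recombination gave mixed values on S222A induction. In nucleotide and base excision repair, with 24 genes tested and a median log2 fold change of -0.21, POLB, the gap-filling polymerase of base excision, rose from 42.2 ± 6.26 to 70.6 ± 6.77 CPM (SD, n = 3), a log2 fold change of 0.76 ± 0.16 with an adjusted p of 0.0209 in edgeR. NEIL3, a glycosylase that also unhooks crosslinks, fell from 53.1 ± 5.20 to 30.3 ± 4.53 CPM, or -0.82 ± 0.20 with an adjusted p of 0.0336. Between the induced lines, which share the S222A induced libraries, NEIL3 was lower by a log2 difference of -1.03 ± 0.19 and POLB higher by 0.59 ± 0.16. The 7 mismatch repair genes had a median of -0.27 and the 14 tested end-joining genes a median of -0.02, with no call in either list.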
